A study of Mus musculus with 9 samples.

Results

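Aminoacyl-tRNA synthetase genes were examined in the mouse carcinoma line SCCVII. The genes were chosen by a name rule, as those with a probe set of their own whose symbol is a single letter followed by "ars", with or without a final 1 or 2, or is Eprs. The choice was made with earlier results of these data known. The rule took 33 of the 18194 genes measured, of which 17 encode cytosolic enzymes and 16 encode mitochondrial enzymes. RNA was measured on 9 Affymetrix arrays in 3 groups of 3. The IR arrays held SCCVII lines recovered from tumours whose host stroma had received radiation ahead of the injection, the NIR arrays held lines recovered from tumours in unirradiated stroma, and the PA arrays held the parental SCCVII cells kept in culture. All groups thus share the same parental line, which came from an oral squamous cell carcinoma that arose spontaneously in a mouse of the strain written CH3 in the labels. The labels describe the IR lines as invasive and metastatic, also after culture with normal oxygen, and the NIR lines as poorly so. The 9 samples are called independent, but the origin of the 3 samples of each group (separate tumours, separate lines or separate dishes) is not stated. The p-values therefore measure only the spread between these arrays, which may be technical. The radiation dose is not given in the sources used here.

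Each synthetase joins an amino acid to its tRNA, and the charged tRNAs then deliver amino acids to the ribosome. Most amino acids have a separate enzyme for the cytosol and for the mitochondrion, both encoded in the nucleus, while Gars (glycine) and Kars (lysine) serve both compartments. When charged tRNA or amino acids run short, the kinase Gcn2 phosphorylates the translation factor eIF2alpha, the transcription factor ATF4 accumulates, and transcription of many cytosolic synthetases rises along with amino acid transporters and biosynthetic enzymes. This programme is called the integrated stress response. Several cytosolic synthetases are held together in the multisynthetase complex by the scaffold proteins Aimp1, Aimp2 and Eef1e1.

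The promoters of 5 members are shown because they hold a sequence of the type through which ATF4 acts with C/EBP proteins, and that of Ears2 is shown because Ears2 had the smallest p of the members between IR and NIR. The windows come from RefSeq on the mouse build GRCm38.p6 and run from 250 bases before to 50 bases into the gene, 5′ to 3′ on the gene's strand. Aars lies at chr8:111033592-111033891 on the plus strand, Gars at chr6:55037751-55038050 on the plus strand, Iars at chr13:49681880-49682179 on the plus strand, Tars at chr15:11399609-11399908 on the minus strand, Yars at chr4:129189653-129189952 on the plus strand, and Ears2 at chr7:122067037-122067336 on the minus strand. Capitals mark TGATGNAA, or its reverse complement TTNCATCA, in the first 5 and the E-box CACGTG in Ears2.
Aars: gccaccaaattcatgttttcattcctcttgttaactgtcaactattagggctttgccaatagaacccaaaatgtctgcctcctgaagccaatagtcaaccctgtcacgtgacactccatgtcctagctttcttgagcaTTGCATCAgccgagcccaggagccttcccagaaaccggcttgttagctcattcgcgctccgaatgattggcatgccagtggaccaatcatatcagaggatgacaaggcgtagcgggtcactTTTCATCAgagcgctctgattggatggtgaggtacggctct
Gars: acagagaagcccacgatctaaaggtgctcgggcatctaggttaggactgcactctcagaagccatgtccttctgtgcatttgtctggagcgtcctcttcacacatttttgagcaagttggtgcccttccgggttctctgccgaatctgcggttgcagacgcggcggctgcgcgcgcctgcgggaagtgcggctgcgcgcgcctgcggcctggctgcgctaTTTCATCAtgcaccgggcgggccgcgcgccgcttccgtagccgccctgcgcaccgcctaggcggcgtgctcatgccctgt
Iars: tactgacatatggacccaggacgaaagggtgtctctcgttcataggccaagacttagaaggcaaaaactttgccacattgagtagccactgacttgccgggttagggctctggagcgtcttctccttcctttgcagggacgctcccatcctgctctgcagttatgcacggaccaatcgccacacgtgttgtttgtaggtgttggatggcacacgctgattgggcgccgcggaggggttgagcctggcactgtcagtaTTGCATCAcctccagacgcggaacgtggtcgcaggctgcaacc
Tars: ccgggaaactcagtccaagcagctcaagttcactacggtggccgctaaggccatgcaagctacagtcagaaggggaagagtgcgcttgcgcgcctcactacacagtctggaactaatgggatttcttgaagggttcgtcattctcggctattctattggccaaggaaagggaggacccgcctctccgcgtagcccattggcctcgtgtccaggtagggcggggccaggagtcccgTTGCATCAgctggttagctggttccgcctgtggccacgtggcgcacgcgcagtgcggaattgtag
Yars: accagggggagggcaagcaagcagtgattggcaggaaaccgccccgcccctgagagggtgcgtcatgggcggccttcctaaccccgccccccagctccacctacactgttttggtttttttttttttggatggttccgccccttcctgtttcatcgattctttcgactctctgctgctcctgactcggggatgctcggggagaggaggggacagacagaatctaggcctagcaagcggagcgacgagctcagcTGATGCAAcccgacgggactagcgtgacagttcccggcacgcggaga
Ears2: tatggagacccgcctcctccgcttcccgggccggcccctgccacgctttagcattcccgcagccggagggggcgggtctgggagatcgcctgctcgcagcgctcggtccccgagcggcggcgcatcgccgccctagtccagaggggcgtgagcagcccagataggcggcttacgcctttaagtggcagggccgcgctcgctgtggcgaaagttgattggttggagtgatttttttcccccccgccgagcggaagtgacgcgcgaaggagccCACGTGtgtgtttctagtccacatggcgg

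A promoter was available for 24 of the 33 members, 10 cytosolic and 14 mitochondrial. TGATGNAA was present on either strand in 5 of the 10 cytosolic members, which are those shown, and in 0 of the 14 mitochondrial members, against 4.51% of all 27025 genes in the promoter table. The first match lay 112 bases before the start in Aars, 30 before it in Gars and 15 before it in Tars, and at base 8 of the transcript in Iars and base 4 in Yars, each counted to the first base of the match. Aars held 2 matches. CACGTG was present in Aars, Iars and Tars and in the mitochondrial gene Ears2, against 8.09% of all genes. CACGTG is the E-box bound by Myc and related factors, and no match overlapped a TGATGNAA. The core of the interferon-stimulated response element was found, among the 24 members with a window, in Qars, against 3.99% of all genes; Wars had no window in the table and was not searched. A match describes the letters in the window and is not evidence of binding.

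The values compared are RMA expression values on a log2 scale, on which a difference of 1 is a doubling. For each gene the brightest probe set was used, and levels were compared between groups for the same probe set, never between genes. The median probe set of the array had a value of 4.49. Of the 33 members, Mars2, the mitochondrial methionyl-tRNA synthetase, was the only member whose mean, 3.41, was below it. The other members averaged between 5.93 (Wars2) and 11.51 (Sars), so nearly all were measured well inside the range of the array. In RNA from whole cultures, fewer cells of a type and less RNA per cell cannot be told apart. Of 9 markers of squamous or simple epithelium, 6 lay above the median probe set: the keratins Krt8 and Krt18 were bright in all groups, and Sfn, Epcam, Krt5 and Krt19 had means of 6.45, 6.05, 4.93 and 4.90. Krt14, Trp63 and Cdh1 lay below it. Array medians were between 4.45 and 4.52, and the arrays of a group did not come with any stated batch.

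No synthetase gene was called in any comparison by limma with Benjamini-Hochberg adjustment over all genes at 0.05. The count was 0 of 33 in IR against NIR, where 1.65% of all genes were called (0.786% higher and 0.863% lower), 0 of 33 in IR against PA, where 1.06% were called (0.297% higher and 0.758% lower), and 0 of 33 in NIR against PA, where 1.3% were called (0.379% higher and 0.918% lower). An F test over the 3 groups also called 0 of 33, against 2.34% of all genes, with a smallest adjusted p among the members of 0.117. At an unadjusted p below 0.05, 7 members passed in IR against NIR, all lower in IR, against 15.9% of all genes (7.8% higher and 8.08% lower). In IR against PA, 3 members passed, all lower in IR, against 8.59% of all genes (4.3% higher and 4.29% lower). In NIR against PA, 4 members passed, 3 of them higher and 1 lower in NIR, against 12.1% of all genes (5.96% higher and 6.14% lower). The 95% intervals rest on the spread between these arrays, which may be technical, so they need not bound a change between lines. They cover only the brightest probe set of each gene. For all 33 members, in each of the comparisons, the interval of the log2 difference lay within 0.5 of 0, that is within a 1.41-fold change either way. Intervals this narrow were found for 89.5% of all genes in IR against NIR, 93.8% in IR against PA and 91.8% in NIR against PA.

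**Figure D1:**
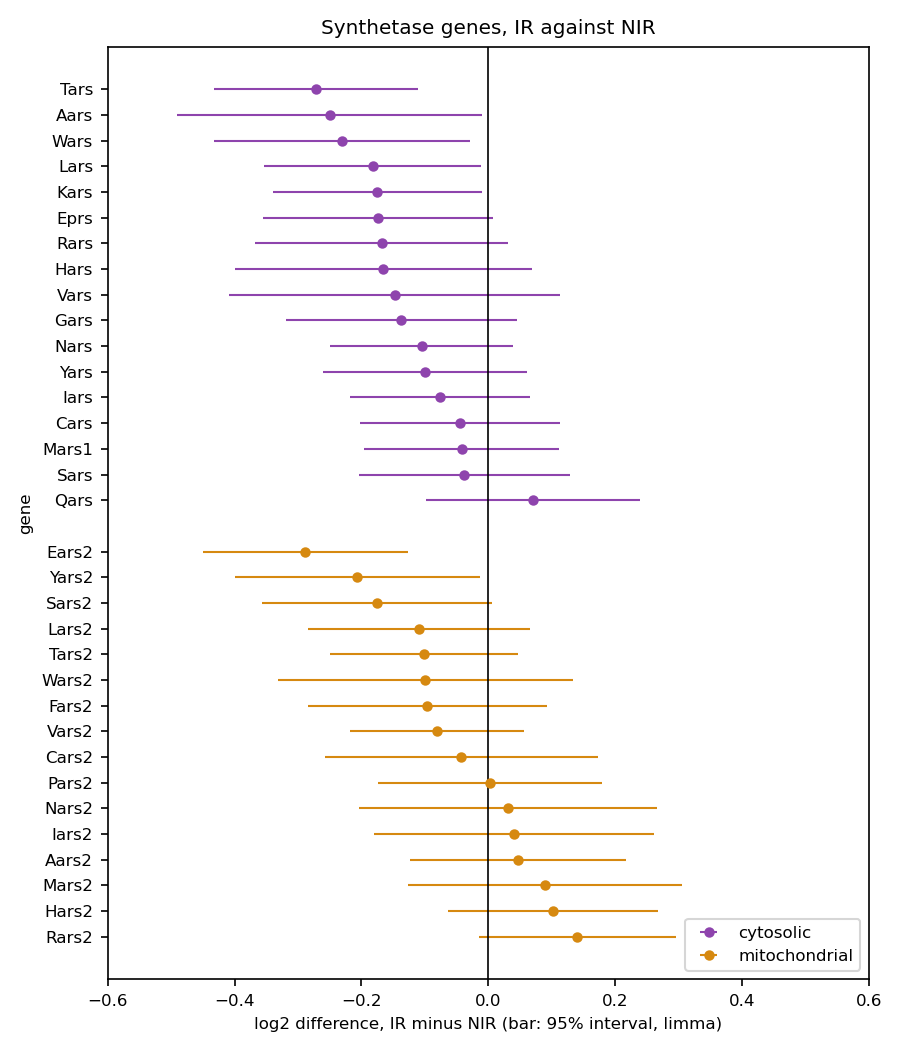
Fitted log2 difference between IR and NIR arrays for each of the 33 synthetase genes, sorted by size, with its 95% limma interval as a bar. The differences run from -0.29 (Ears2) to 0.14 (Rars2), and 16 of the 17 cytosolic genes lie left of 0.

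The direction of the differences was uneven in IR against NIR. The fitted difference was below 0 for 25 of the 33 members, against 49.5% of all genes. Among cytosolic enzymes 16 of 17 were below 0, with a median of -0.15, and among mitochondrial enzymes 9 of 16, with a median of -0.062, while the median of all genes was 0.0014. The cytosolic exception was Qars, the glutaminyl-tRNA synthetase, at 0.071, whose other probe sets were at 0.0064, 0.17 and -0.031. These are small differences, from -0.27 (Tars) to 0.071 (Qars), and genes measured in the same RNA do not count as independent observations. In NIR against PA, 0 of the 17 cytosolic genes and 10 of the 16 mitochondrial genes were below 0, against 48.4% of all genes, with medians of 0.12 for the cytosolic and -0.028 for the mitochondrial members. That comparison uses the same NIR arrays as IR against NIR, so its direction is not a second observation. In IR against PA the cytosolic genes had a median of -0.013, with 11 of 17 below 0, and the mitochondrial genes had a median of -0.041, with 11 of 16 below 0, against 48.1% of all genes. Each comparison left most members inside the middle of all genes: 31, 32 and 32 of the 33 lay between the 5th and the 95th percentile of all genes in IR against NIR, IR against PA and NIR against PA, in that order.

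**Figure D2:**
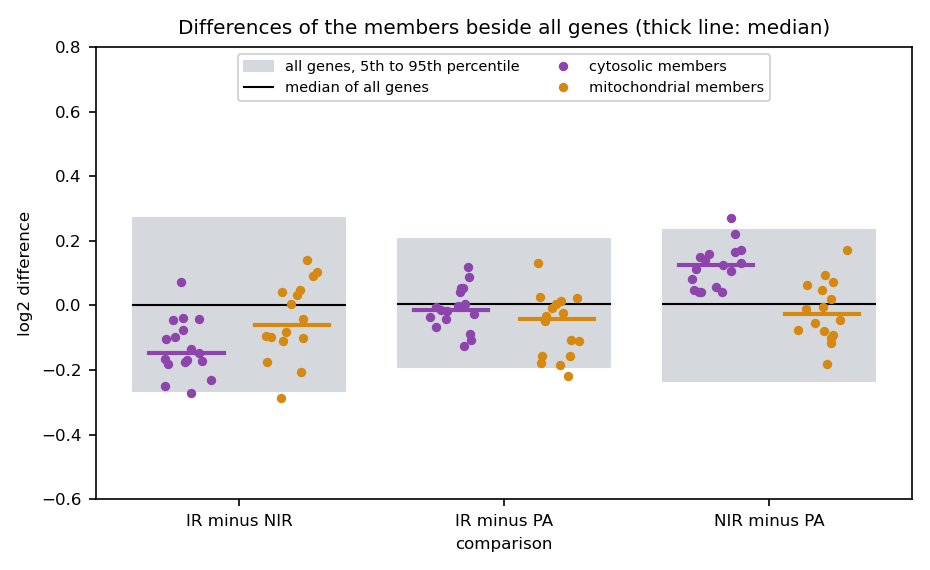
Fitted log2 differences of the 17 cytosolic and 16 mitochondrial synthetase genes in the 3 comparisons, one point a gene with thick lines for group medians, over a grey band from the 5th to the 95th percentile of all 18194 genes and a black line at their median. The cytosolic medians are -0.15 in IR minus NIR, -0.013 in IR minus PA and 0.12 in NIR minus PA; the outer 2 comparisons share the NIR arrays.

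The groups were also compared by whether their arrays overlapped. In IR against NIR, 11 members had all IR values below all NIR values, against 9.4% of all genes, and 0 had all IR values above, against 8.69%. The 11 were the cytosolic genes Aars, Kars, Lars, Nars, Rars, Tars and Wars and the mitochondrial genes Ears2, Tars2, Vars2 and Yars2. In IR against PA, Ears2, Lars2 and Pars2 were lower in every IR array, against 7.43% of all genes, and 0 members were higher in every IR array, against 7.26%. In NIR against PA, Aars, Eprs, Iars, Lars, Nars, Tars and Vars2 were higher in every NIR array, against 7.82% of all genes, and Pars2 was lower in every NIR array, against 7.73%.

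Among the cytosolic members, Tars, which charges tRNA with threonine, came closest to the threshold. Tars was at 10.44, 10.37 and 10.32 in IR arrays 1 to 3, at 10.71, 10.57 and 10.66 in NIR arrays and at 10.54, 10.53 and 10.39 in PA arrays. All IR values were below all NIR values, while IR and PA overlapped. The log2 difference between IR and NIR was -0.27 (95% interval -0.43 to -0.11, limma adjusted p = 0.0904), a ratio of 0.829. Between NIR and PA it was 0.16 (adjusted p = 0.400). Every array left out in turn kept Tars lower in IR than in NIR, at -0.31 to -0.24.

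Lars, the leucyl-tRNA synthetase of the multisynthetase complex, which is also a leucine sensor for mTORC1, was at 10.10, 10.02 and 9.83 in IR arrays, at 10.17, 10.20 and 10.13 in NIR arrays and at 9.94, 9.90 and 9.85 in PA arrays. The NIR arrays were the highest and did not overlap with either other group, and IR array 3 was below every PA array. Lars had the largest NIR against PA difference of the members, 0.27 (95% interval 0.099 to 0.44, limma adjusted p = 0.156). Its IR against NIR difference was -0.18 (adjusted p = 0.280) and was -0.11 without IR array 3.

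Aars, which charges tRNA with alanine, was at 10.82, 10.85 and 10.74 in IR arrays, at 10.90, 11.36 and 10.90 in NIR arrays and at 10.83, 10.80 and 10.87 in PA arrays. NIR array 2 stood apart, and the other two NIR arrays were less than 0.1 above the highest IR array. The difference between IR and NIR was -0.25 (95% interval -0.49 to -0.0098, limma adjusted p = 0.290), and it was -0.10 without NIR array 2. The difference between NIR and PA was 0.22 (adjusted p = 0.457), and 0.07 without that array. A second Aars probe set also gave -0.25 between IR and NIR.

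Wars, the tryptophanyl-tRNA synthetase, known as an interferon-induced member of the family, was at 9.07, 9.03 and 8.90 in IR arrays, at 9.09, 9.42 and 9.18 in NIR arrays and at 9.02, 9.09 and 9.16 in PA arrays. IR lay just below NIR, and NIR overlapped with PA. The log2 difference between IR and NIR was -0.23 (limma adjusted p = 0.245), and -0.13 without NIR array 2. Other Wars probe sets gave -0.30, -0.021 and -0.10. Against PA, Wars differed by -0.089 in IR (adjusted p = 0.879) and by 0.14 in NIR (adjusted p = 0.597).

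Of 8 interferon genes listed beside Wars, 6 were measured, and 5 of these were called lower against PA in both IR and NIR, against 0.758% and 0.918% of all genes called lower in those comparisons, including Irf7, the regulator of type I interferon, by -2.57 in IR (limma adjusted p = 2.13e-06) and -2.54 in NIR (adjusted p = 4.93e-06). Irf7 was at 7.52, 7.35 and 7.16 in IR arrays and at 7.16, 7.28 and 7.69 in NIR arrays, against 9.93, 9.92 and 9.91 in PA arrays. The guanylate-binding protein genes Gbp3 and Gbp2 differed by -1.72 and -0.84 in IR, and by -1.72 and -1.11 in NIR. Tap1, the peptide transporter, and Psmb9, the immunoproteasome subunit, differed by -0.52 and -0.38 in IR and by -0.57 and -0.64 in NIR. The Tap1 and Psmb9 calls in IR, with limma adjusted p of 0.0219 and 0.0328, were lost on leaving out single arrays, reaching 0.127 without PA array 2 for Tap1 and 0.149 without IR array 1 for Psmb9, and the Tap1 call in NIR reached 0.0686 without PA array 2. Irf1, a transcription factor that activates Wars, was not called in either comparison. Between IR and NIR limma called 0 of the 6. The smallest p belonged to Psmb9, at 0.26 (limma adjusted p = 0.0993), and then to Gbp2, at 0.27 (adjusted p = 0.144). The difference of Wars from these genes was not tested.

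Nars, the asparaginyl-tRNA synthetase, was at 11.03, 11.03 and 10.98 in IR arrays, at 11.09, 11.20 and 11.07 in NIR arrays and at 11.00, 10.95 and 10.95 in PA arrays. Every NIR array was above every IR and PA array, by a small margin. The difference was -0.11 between IR and NIR (limma adjusted p = 0.494), with -0.059 at its other probe set, and 0.16 between NIR and PA (adjusted p = 0.357).

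The remaining cytosolic members had differences between IR and NIR from -0.17 to 0.071. Eprs, the bifunctional glutamyl-prolyl enzyme, had -0.17, and its other bright probe sets gave -0.19 and 0.029. Kars and Gars, which serve both compartments, had -0.17 and -0.14. Rars (arginine) and Hars (histidine) had -0.17 each, Vars (valine) had -0.15 and Yars (tyrosine) had -0.10. Iars (isoleucine) had -0.076, Cars (cysteine) -0.045, Mars1 (methionine) -0.042 and Sars (serine) -0.038. The smallest adjusted p among them was 0.281, for Kars.

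**Figure D3:**
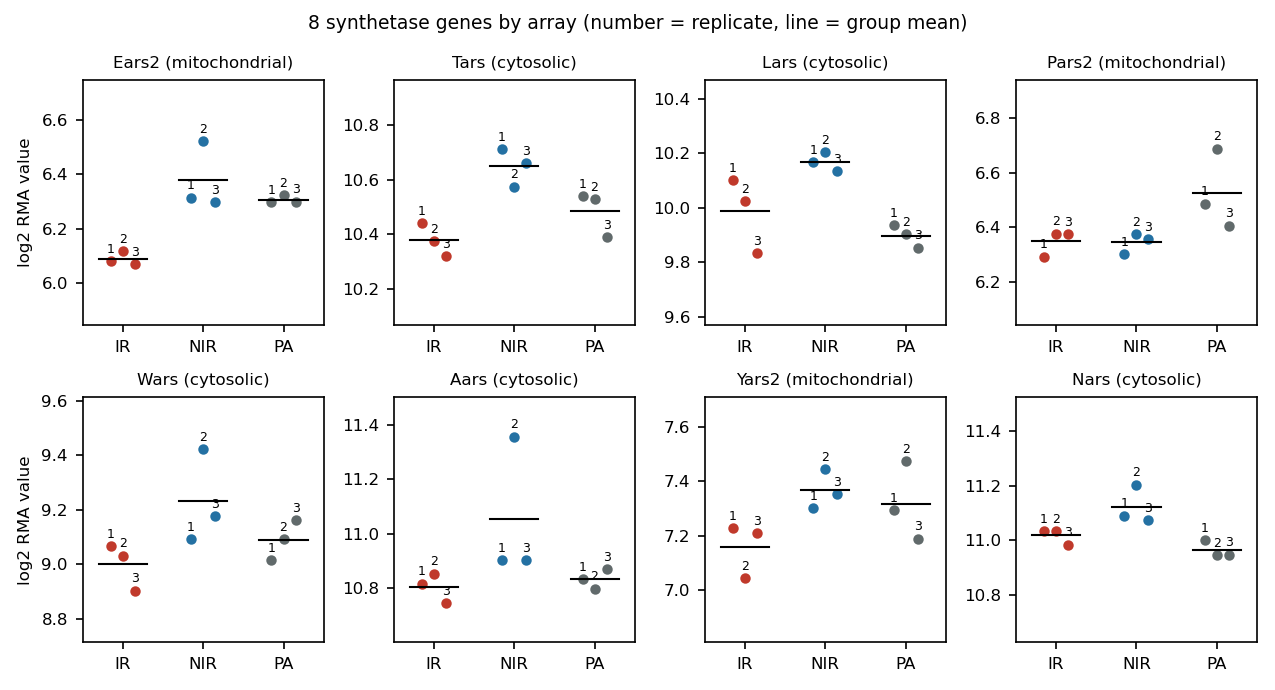
Log2 RMA values of the 8 synthetase genes described array by array, with IR, NIR and PA from left to right, array numbers as points and the group mean as a line; every panel spans the same height on the log2 axis. IR lies below NIR without overlap in each panel except that of Pars2, and NIR array 2 is the top point for Ears2, Lars, Wars, Aars and Nars.

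Among the mitochondrial enzymes, Ears2, the glutamyl-tRNA synthetase, was lower in the IR arrays than in both other groups, short of the threshold. It was at 6.08, 6.12 and 6.07 in IR arrays, at 6.31, 6.52 and 6.30 in NIR arrays and at 6.30, 6.32 and 6.30 in PA arrays. The IR values were tightly grouped and overlapped with neither other group. The difference from NIR was -0.29 (95% interval -0.45 to -0.13, limma adjusted p = 0.0777), a ratio of 0.819, and the difference from PA was -0.22 (adjusted p = 0.349). Without NIR array 2 the difference from NIR was -0.22 (adjusted p = 0.157). The other Ears2 probe sets were dim, with means of 4.55, 3.81 and 3.73, and gave -0.03, 0.0068 and 0.23 between IR and NIR, so the value rests on a single probe set, and the mean over all its probe sets differed by -0.02.

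Pars2, the prolyl-tRNA synthetase, was at 6.29, 6.38 and 6.38 in IR arrays, at 6.30, 6.38 and 6.36 in NIR arrays and at 6.49, 6.69 and 6.41 in PA arrays. IR and NIR overlapped, and every array of both lay below every PA array. The difference from PA was -0.18 in IR (limma adjusted p = 0.571) and -0.18 in NIR (adjusted p = 0.395), and each was -0.10 without PA array 2. Yars2, the tyrosyl-tRNA synthetase, was at 7.23, 7.04 and 7.21 in IR arrays, at 7.30, 7.44 and 7.35 in NIR arrays and at 7.29, 7.47 and 7.19 in PA arrays. IR was below NIR in every array and overlapped with PA. Its difference between IR and NIR was -0.21 (adjusted p = 0.277), while its other bright probe set gave 0.10.

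The remaining mitochondrial members went either way between IR and NIR. Sars2 (serine) had -0.18, Lars2 (leucine) -0.11, Tars2 (threonine) -0.10, Wars2 (tryptophan) -0.099, Fars2 (phenylalanine) -0.096, Vars2 (valine) -0.081 and Cars2 (cysteine) -0.043. Rars2 (arginine) had 0.14, Hars2 (histidine) 0.10, Mars2 0.090, Aars2 (alanine) 0.047, Iars2 (isoleucine) 0.041 and Nars2 (asparagine) 0.032. Rars2 was the highest of all members in this comparison, with 8.58, 8.46 and 8.47 in IR arrays and 8.46, 8.28 and 8.35 in NIR arrays (limma adjusted p = 0.372). Lars2 was at 7.804, 7.927 and 7.643 in IR arrays, against 7.946, 7.976 and 8.005 in PA arrays, a difference of -0.18.

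The members were also read by groupings that cut across compartment. The 2 catalytic classes have unrelated folds of the active site. Between IR and NIR the 19 class I genes had a median of -0.099, with 15 below 0, and the 14 class II genes had a median of -0.10, with 10 below 0. Of 8 enzymes of the multisynthetase complex 7 were measured, and 6 of these were below 0, with a median of -0.17. The 13 synthetases listed as ATF4-responsive were below 0 in 13 of 13 cases between IR and NIR, with a median of -0.14, and below 0 in 0 of 13 between NIR and PA, with a median of 0.13, against 49.5% and 48.4% of all genes below 0. Limma called 0 of these 13 in any comparison, with 4 at an unadjusted p below 0.05 in IR against NIR, 0 in IR against PA and 3 in NIR against PA, where 15.9%, 8.59% and 12.1% of all genes passed. The cytosolic members not on that list were Hars, Kars and Rars, at -0.17 each between IR and NIR, and Qars, at 0.071. All of these were above 0 between NIR and PA, from 0.040 (Hars) to 0.15 (Rars). Cytosolic members with TGATGNAA in the printed windows had IR against NIR differences from -0.27 to -0.076, with a median of -0.14, and the 5 with a window but without the motif (Eprs, Kars, Mars1, Qars and Sars) ranged from -0.17 to 0.071, with a median of -0.042. The groups overlap, and no test was made between them.

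A pair of arrays stood at the ends of the range. NIR array 2 was the highest of the 9 arrays for 12 of the 17 cytosolic genes and 12 of the 13 ATF4-responsive ones, and for 15 of all 33 members, against 18.5% of all genes. IR array 3 was the lowest for 10 of the 17 cytosolic genes and for 12 of all 33, against 17% of all genes. The mean deviation of the cytosolic genes from their 9-array means was -0.012, -0.018 and -0.11 in IR arrays 1 to 3, 0.056, 0.16 and 0.036 in NIR arrays and -0.032, -0.025 and -0.054 in PA arrays. Each NIR array was thus above each IR and PA array, with NIR 2 and IR 3 at the ends. Averaged by group, the IR arrays were at -0.047 ± 0.057, the NIR arrays at 0.084 ± 0.067 and the PA arrays at -0.037 ± 0.015 (SD, n = 3 each). The mitochondrial genes did not follow this order, at -0.037 ± 0.028 in IR, 0.0094 ± 0.017 in NIR and 0.028 ± 0.050 in PA. Without NIR array 2, 13 of the 17 cytosolic genes were below 0 between IR and NIR, with a median of -0.065, and without IR array 3, 16 of 17, with a median of -0.090. Without both arrays, an alternative chosen after seeing the data, 12 of 17 were below 0, and the median of all 33 members was -0.048 instead of -0.10. Between IR and PA, 7 of the 17 cytosolic genes were below 0 without IR array 3, instead of 11.

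**Figure D4:**
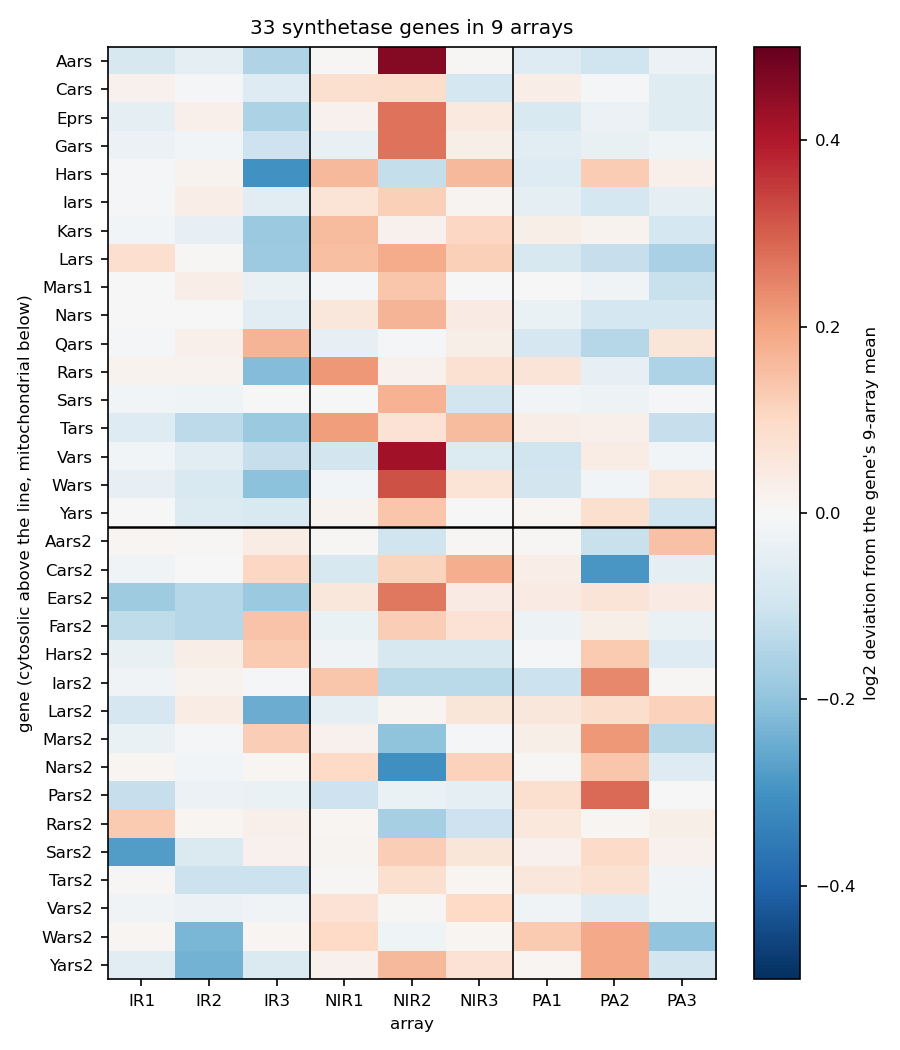
Deviation of each of the 33 synthetase genes (rows, cytosolic above the line and mitochondrial below) from its own mean over the 9 arrays, on the log2 colour scale at the right, with IR, NIR and PA arrays from left to right. NIR array 2 is the highest array in 12 of the 17 cytosolic rows and IR array 3 the lowest in 10.

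IR array 3 also differed in markers of another cell type. The mean of the 11 macrophage markers was 4.72, 4.78 and 5.20 in IR arrays 1 to 3, from 4.72 to 4.85 in NIR arrays and from 4.50 to 4.65 in PA arrays. Lyz2, the lysozyme gene of macrophages, was at 5.71, 5.78 and 8.25 in IR arrays, against 5.60, 6.32 and 5.50 in NIR arrays and 4.63, 4.95 and 5.02 in PA arrays. IR array 3 thus had the highest Lyz2 value. Cd68 was also highest there, at 5.83, against 4.81 and 4.71 in IR arrays 1 and 2 and 5.50 in NIR array 1. C1qa, C1qb and Itgam, below the median probe set, were highest in IR array 3 too. Adgre1 was highest in IR array 2, as was Fcgr1, by little (4.73, against 4.72 in PA array 3). Ptprc was level in IR arrays 2 and 3, at 3.88 in each. Other bright markers did not all follow Lyz2: Cd14 was at 7.46 in IR array 3 and 7.80 in NIR array 1, Mrc1 at 5.41 and 5.57 in the same arrays, and Csf1r at 5.53 in IR array 3, below IR array 1 and every NIR array. Of the 11 markers 6 lay above the median probe set, and Ptprc, Adgre1, Itgam, C1qa and C1qb, which include the defining genes of the cell type, lay below it. Of 10 fibroblast markers 7 lay above the median probe set, with means from 7.11 to 7.22 in IR arrays, 6.96 to 7.32 in NIR arrays and 6.76 to 6.92 in PA arrays. The mean of the 6 endothelial markers, of which 2 lay above the median probe set, was 4.20, 4.18 and 4.22 in IR arrays, 4.34, 4.44 and 4.32 in NIR arrays and from 4.22 to 4.33 in PA arrays. The mean of the 7 lymphocyte markers measured, of which 4 lay above it, was 5.08, 5.13 and 5.12 in IR arrays, 5.16, 5.20 and 5.14 in NIR arrays and from 4.90 to 5.15 in PA arrays. In both list means every NIR array was above every IR array and NIR array 2 was the highest, as for the mean of the cytosolic synthetases. The lymphocyte means nearly met, at 5.133 in IR array 2 and 5.140 in NIR array 3. No bright marker of either list separated the groups: IR and NIR overlapped for Cdh5, Kdr, Cd3e, Cd79a, Cd8a and Cd4. Pecam1, Tek, Vwf and Emcn (endothelium) and Cd3d, Ms4a1 and Nkg7 (lymphocytes) lay below the median probe set. The part of these cell types in the synthetase values was not tested.

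**Figure D5:**
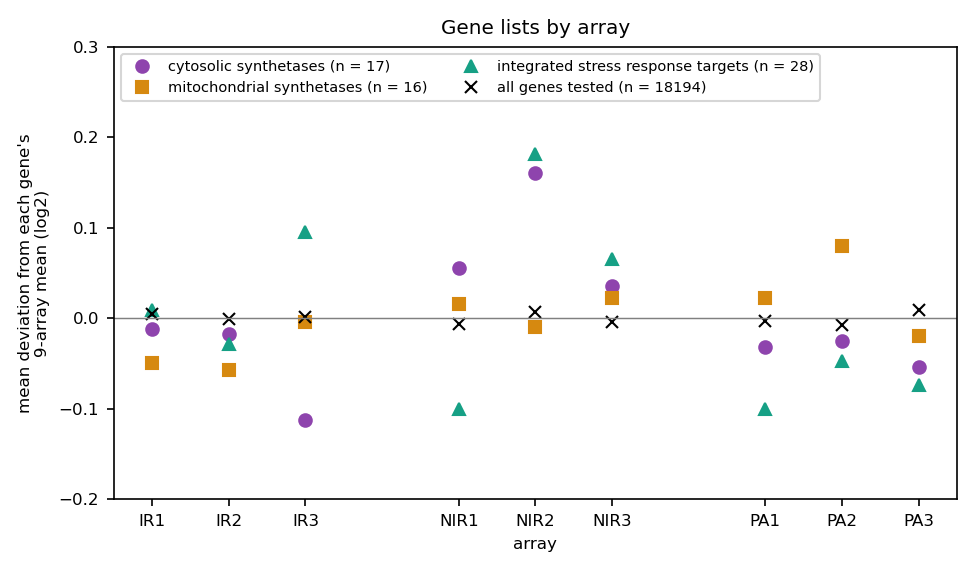
Mean deviation of 3 gene lists, and of all genes, from the 9-array mean of each gene, by array, on a log2 scale, with IR, NIR and PA arrays from left to right. The cytosolic synthetases reach 0.16 in NIR array 2 and -0.11 in IR array 3; the integrated stress response targets reach 0.18 in NIR array 2 but lie at 0.095 in IR array 3.

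Of the other genes of the pathway, 28 of 30 listed integrated stress response targets were measured. In IR against NIR limma called 0 of the 28, with 7 at an unadjusted p below 0.05 against 15.9% of all genes, 17 were below 0 and their median was -0.028. The pair with the smallest p were Trib3, an ATF4 target that feeds back on Akt and ATF4, at 0.46 (limma adjusted p = 0.117), and Mthfd2, the mitochondrial folate enzyme, at -0.26 (adjusted p = 0.131). Atf4 itself was at 12.176, 12.099 and 12.189 in IR arrays, at 12.026, 12.201 and 12.081 in NIR arrays and at 12.045, 12.047 and 11.996 in PA arrays, a difference of 0.052 between IR and NIR (adjusted p = 0.793). Array values say nothing of ATF4 protein, which is set by translation. By array the list had a mean deviation of 0.0096, -0.028 and 0.095 in IR arrays, -0.10, 0.18 and 0.065 in NIR arrays and -0.10, -0.047 and -0.074 in PA arrays. The highest array was again NIR 2, but IR 3, the lowest for the cytosolic synthetases, was second highest here.

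Against PA, 6 of the 28 targets were below 0 in IR, with a median of 0.072, where 48.1% of all genes were below 0. In NIR 7 were below 0, with a median of 0.084, against 48.4% of all genes. At an unadjusted p below 0.05, 3 passed in IR (2 higher, 1 lower), against 8.59% of all genes. In NIR 9 passed (8 higher, 1 lower), against 12.1% (5.96% higher, 6.14% lower). Both comparisons share the PA arrays. Atf3, a stress-induced transcription factor, was higher in IR than in PA by 0.59 (limma adjusted p = 0.0274). It was at 5.76, 5.72 and 5.82 in IR arrays against 5.01, 5.48 and 5.02 in PA arrays. This was the only call among the 28 in IR against PA, where 1.06% of all genes were called. The call was lost on leaving out IR array 1, 2 or 3 or PA array 1 or 3, with an adjusted p up to 0.160. Ddit3, which encodes the factor CHOP, rose in NIR by 0.59 (adjusted p = 0.0262), at 8.92, 8.91 and 9.08 in NIR arrays against 8.36, 8.43 and 8.36 in PA arrays, again the only call among the 28, where 1.3% of all genes were called. Its call was lost on leaving out any NIR or PA array, with an adjusted p up to 0.122. Neither the Atf3 nor the Ddit3 groups overlapped. Both genes were above PA without overlap in the other group too, short of the threshold. Atf3 differed by 0.37 in NIR (limma adjusted p = 0.183) and Ddit3 by 0.44 in IR (adjusted p = 0.126). Neither was called between IR and NIR, at 0.23 for Atf3 (adjusted p = 0.361) and -0.15 for Ddit3 (adjusted p = 0.588).

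Upstream of ATF4, 6 of 7 listed genes of the eIF2alpha kinases and phosphatase were measured. Of these, 1 was called in IR against NIR and 1 in IR against PA, where 1.65% and 1.06% of all genes were called, and limma called 0 in NIR against PA, with 3 at an unadjusted p below 0.05, where 1.3% were called and 12.1% passed unadjusted. Ppp1r15a, the stress-induced phosphatase subunit also called GADD34, was higher in IR than in NIR by 0.59 (limma adjusted p = 0.0496), at 7.68, 7.62 and 8.20 in IR arrays against 7.20, 7.37 and 7.15 in NIR arrays. The groups did not overlap, IR array 3 was the highest, and the call was lost on leaving out any array, with an adjusted p up to 0.118. Eif2ak2, the interferon-induced kinase PKR, was lower in IR than in PA by -0.74 (adjusted p = 0.0486), at 6.30, 6.32 and 5.95 in IR arrays against 6.96, 7.08 and 6.73 in PA arrays. That call was lost on leaving out any IR or PA array or NIR array 1, with an adjusted p up to 0.251. Eif2ak4, which encodes Gcn2, the kinase that senses uncharged tRNA, differed by 0.23 between IR and NIR (adjusted p = 0.321). Between NIR and PA the smallest p belonged to Eif2ak2, at -0.49 (limma adjusted p = 0.203), and then to Eif2ak4, at -0.31 (adjusted p = 0.261).

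The 17 partner genes that the name rule leaves out were all measured, and limma called 0 in any comparison, with 4, 2 and 3 at an unadjusted p below 0.05 in IR against NIR, IR against PA and NIR against PA, in that order, where 15.9%, 8.59% and 12.1% of all genes passed. Between IR and NIR their median was -0.0072, with 9 below 0. The smallest p belonged to Sepsecs, which makes the selenocysteine form of its tRNA, at 0.32 (limma adjusted p = 0.0631), with 5.62, 5.77 and 5.77 in IR arrays against 5.28, 5.47 and 5.46 in NIR arrays. Yrdc, which takes part in the threonylcarbamoyl modification of tRNA, followed at -0.37 (adjusted p = 0.0765), with 8.57, 8.58 and 8.27 in IR arrays against 8.78, 8.95 and 8.80 in NIR arrays. Neither gene's groups overlapped. Tarsl2, a further threonyl-tRNA synthetase gene, went the other way from Tars, at 0.32 (limma adjusted p = 0.0815). It was at 6.19, 6.24 and 6.47 in IR arrays, all above the 6.06, 5.97 and 5.89 in NIR arrays. Of the phenylalanyl-tRNA synthetase, a cytosolic enzyme of 2 kinds of subunit, Farsa had -0.27 (adjusted p = 0.145) and Farsb had 0.076 (adjusted p = 0.745). The scaffold genes of the multisynthetase complex had -0.048 (Aimp1), -0.13 (Aimp2) and -0.15 (Eef1e1), with adjusted p of 0.819, 0.427 and 0.510. In IR against PA the smallest p belonged to Dtd2, which removes wrongly attached amino acids from tRNA, at 0.25 (adjusted p = 0.172). Sepsecs followed at 0.27 (limma adjusted p = 0.189). In NIR against PA the smallest p belonged to Dtd2, at 0.19 (adjusted p = 0.282), and then to Qrsl1, at -0.24 (adjusted p = 0.369).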

How the data were processed

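RNA of 9 samples was hybridized to Affymetrix mouse arrays. The deposited table holds log2 expression values that the authors made with RMA, per the submitters' processing notes; its version and settings are not given in the sources used here. The values ranged from 2.47 to 14.0 and were used without further scaling. Of 45100 probe sets, 34944 were annotated to a single gene. Symbols came from the platform annotation, updated through Entrez Gene identifiers against RefSeq (34740 matched). The brightest probe set by mean value stood for each of 18194 genes, a choice among several for 9009 of them.

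Groups were taken from the sample titles. All 9 arrays entered a single limma 3.58.1 fit in R 4.3.3 (lmFit and eBayes, no covariates, 2-sided, 6 residual and 5.48 prior degrees of freedom), with Benjamini-Hochberg adjustment over all genes and a threshold of 0.05. The procedure was tested on simulated data. Precision is limited by the number of arrays. The members and gene lists were chosen with earlier results of these data known. A match through a synonym alone (Dtd1 and 4930503L19Rik) was not taken as a member, and a probe set annotated to both Aars and Exosc6 was left out. The 64 probe sets of the members were also fitted one by one, and 0 were called. Values by array are given for members that were called, or did not overlap with a difference of at least 0.3, which held for 0 members, and then for those with the smallest F-test p up to 8. Of the other lists, called genes, or the pair with the smallest p, are named. Atf4, Eif2ak4, Farsa, Farsb, Tarsl2, the scaffold genes, Rars2 and Lars2 were added after their values were seen. Alternatives covered the choice of probe set, a brightness filter, centring, a second quantile normalization, the variance model, array weights, 2-group fits, the replicate block, other thresholds and leaving out arrays. Promoter motifs were searched with Python 3.11.15.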

Additional observations from a re-analysis of the deposited data

How the results depend on the processing

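Of 789 values recomputed under the alternatives, 744 kept their direction, their side of the threshold and nearly their size. The count of called synthetase genes was 0 in every comparison under every alternative at 0.05, each array left out included. At an adjusted p below 0.1 it was 2 (Tars and Ears2) in IR against NIR, with 3 partner genes. The share of all genes called is not given here for the alternatives, so these counts have no background beside them. The 10 changes of sign were all in values near 0 that were not called. With probe sets averaged per gene, NIR minus PA became -0.035 for Ears2 and -0.064 for Yars2. Pars2 in IR minus NIR became -0.0013 with a second quantile normalization, -0.0059 with array weights, and -0.011, -0.0099 and -0.018 without IR array 2, IR array 3 and NIR array 1. With single arrays left out, Pars2 in IR minus NIR ranged from -0.018 to 0.031, Aars in IR minus PA from -0.052 to 0.0015 (above 0 without IR array 3), Ears2 in NIR minus PA from -0.00079 (without NIR array 2) to 0.11, and Yars2 in NIR minus PA from -0.016 (without PA array 3) to 0.13. The members' median in IR minus NIR was -0.042 with probe sets averaged per gene and -0.044 over every probe set, against -0.10; 16 members had several bright probe sets, whose differences shared a sign in 11. Cytosolic genes below 0 numbered 13 to 16 in IR minus NIR, 7 to 11 in IR minus PA and 0 to 2 in NIR minus PA with single arrays left out. Without NIR array 2 and IR array 3 together they numbered 7 in IR minus PA and 2 in NIR minus PA, and with probe sets averaged 1 in NIR minus PA. Called stress response genes in IR minus PA were 3 with array weights and 0 with only the 2 groups compared, with the replicate block or at an adjusted p below 0.01. In NIR minus PA they were 2 with a trended robust variance, with array weights or at 0.1, and 0 at 0.01. Both counts ranged from 0 to 1 with single arrays left out. Array weights called 1 partner gene in IR minus PA. The causes were not tested. Arrays with the same replicate number had residual correlations over all genes from -0.20 to 0.097, with 0 of 9 pairs over 0.1. Such values cannot show whether a pairing acts on part of the genes, and the main fit used none. With the replicate block 0 synthetase genes were called. The number of arrays limits what could be called.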
